A study of Mus musculus with 16 samples.

Results

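The transcript levels of the Wnt signalling pathway were followed in mouse embryonic stem (ES) cells with and without the chromatin protein Cfp1, before and after a short exposure to doxorubicin. The genes were listed by name as members of the pathway, with earlier results of these data known: 46 of the 22375 genes in the count tables are listed members. They comprise 19 Wnt ligands, the ligand-processing enzyme gene Porcn, 12 receptors, 2 secreted antagonists, 8 intracellular transducers and 4 transcription factors of the Tcf/Lef family. The gene identifiers of all 46 were found in the mouse annotation.

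Wnt proteins are secreted lipid-modified signals that bind Frizzled receptors (Fzd) and the co-receptors Lrp5 and Lrp6. In the absence of ligand, a destruction complex built on Axin and Apc lets the kinase Gsk3 mark beta-catenin for degradation, and ligand binding acts through Dishevelled (Dvl) to halt this. Stabilized beta-catenin then enters the nucleus and acts with Tcf/Lef factors on target genes such as Axin2. In mouse ES cells the pathway is known for favouring self-renewal, largely by lifting repression by Tcf7l1, and Wnt3 and Wnt3a are known for their roles in mesoderm formation in the early embryo.

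RNA sequencing was carried out on 4 groups of ES cells of the 129/OLA strain, each with 2 biological replicates sequenced as 2 technical replicates, which gives 16 samples. The WT group is the line E14TG2a, and the Cfp1-/- group is a line that lacks Cfp1, the CXXC finger protein encoded by Cxxc1 that binds unmethylated CpG and belongs to the Set1 histone H3K4 methyltransferase complex. Each genotype was either left untreated or given 1 μM doxorubicin, a topoisomerase II poison that breaks DNA, for 6 h. All cells were grown on gelatin with LIF. A treatment label gives the dose as 1 mM where the protocol has 1 μM. Each genotype is represented by 1 line, and other differences between the lines cannot be told apart from the loss of Cfp1. The sources do not say whether the replicates were separate cultures, so the p-values measure the spread between these libraries.

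The technical replicates were summed, and the 8 libraries held 14880589 to 29422711 counts. Cxxc1 had 1199 and 1164 normalized read counts in untreated WT cells and 807 and 876 in treated WT cells, against 0.964 to 5.11 in the 4 Cfp1-/- libraries. In 1 of the 2 runs of replicate 1 of treated Cfp1-/- cells, the counts of chromosome 19 from position 5849702 (NCBIm37) onward and of chromosomes X and Y were lost: where the other run had 50 counts or more, 635 of 740 genes in that region had 0, against 0 of 10913 elsewhere. Wnt8b, Porcn, Tcf7l2 and Dkk1 lie in that region, and their values in that library come from 1 run but are scaled to 2 (the run without these counts is called the damaged run). Markers of the labelled cell type were present in all groups, and the summed normalized counts of 8 pluripotency genes were 93980.0 and 68894 in untreated and 35939 and 26620.4 in treated WT cells, and 74942 and 74132 and then 32903 and 25030.5 in Cfp1-/- cells. Sums over 4 primed epiblast genes went from 14774 and 24971 to 4298 and 8466 in WT and from 9979 and 12753 to 5145 and 4630.1 in Cfp1-/- cells, with Pou3f1 at 0 in all WT libraries. Sums over 5 fibroblast genes were 237 and 203 in untreated and 511 and 349 in treated WT cells, and 62.1 and 60.8 and then 297 and 349 in Cfp1-/- cells, with Col1a1 making up 57.6% to 71.5% of the treated and 8.33% to 38.4% of the untreated sums. Sums over 3 neuroectoderm genes were 1895 and 846 in untreated and 789 and 726 in treated WT cells, and 172 and 172 and then 375 and 346 in Cfp1-/- cells. Of these, Pax6 went from 1761 and 738 to 74.7 and 27.5 in WT and from 108 and 91.3 to 13.3 and 9.64 in Cfp1-/- cells, and Neurod1 from 124 and 94.9 to 701 and 685 and from 64 and 78.6 to 352 and 329. The remaining marker sums, over 5 mesendoderm and 6 extra-embryonic endoderm entries, lay between 121 and 411. Single mesendoderm genes moved in opposite directions within their sum. Mesp1 went from 0 and 0 to 34.1 and 33.8 in WT and from 0 and 0.845 to 56.2 and 56.9 in Cfp1-/- cells. Eomes went from 124 and 161 to 49.8 and 68.7 in WT and from 194 and 87.9 to 51.1 and 18.3 in Cfp1-/- cells. The part of these markers in the results on the Wnt genes was not tested.

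In untreated WT cells the pathway was carried by its receptors and transducers, with its ligands near the bottom of the range. Per kb of exon, the largest level was that of Ctnnb1, which encodes beta-catenin, at 5264 ± 139 normalized counts per kb (SD, n = 2). It was followed by Lrp6 at 679 ± 17, Fzd7 at 606 ± 16.8, Axin1 at 543 ± 18 and Apc at 486 ± 2.68 per kb. Lrp6 and Fzd7 differed by more than their SDs, whereas Fzd5 at 366 ± 160.3 per kb overlapped with Apc within its SD. The highest ligand per kb was Wnt8a at 38.7 ± 31.4, and the neighbouring Fzd10 at 37.2 ± 11.3 and Fzd2 at 37 ± 14.3 did not differ from it beyond their spread. Wnt1 had 0 counts in all 8 libraries, which allows up to 3 counts in each.

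Of the 46 members, 43 passed the filter on low counts and were tested, and Wnt1, Wnt2 and Wnt16 did not. Of the 43 tested, 7, namely Wnt2b, Wnt8b, Wnt9b, Wnt10a, Wnt10b, Wnt11 and Dkk1, passed only through treated groups, so that they had to differ and their calls are descriptions rather than support. In WT cells 17 members rose and 7 fell under doxorubicin at an adjusted p under 0.05 by the quasi-likelihood test of edgeR, adjusted by Benjamini-Hochberg over all genes tested. In the whole table of 15758 genes 26.5% rose and 21.8% fell. In Cfp1-/- cells 17 members rose and 10 fell, where 27.8% of all genes rose and 21% fell. These were 39.5% of the 43 tested members for the rises in each line, and 16.3% and 23.3% for the falls in WT and Cfp1-/- cells, the latter near the share of all genes. The rises include Wnt2b, Wnt8b, Wnt9b, Wnt10a and Wnt11 in both lines, Dkk1 in WT and Wnt10b in Cfp1-/- cells. Apart from Wnt11 in WT cells, which passed through treated Cfp1-/- cells alone, these had to differ. The share of rises is thus raised by the filter and is a description alone. With the replicate number as a block, 11 members fell in WT cells. The share of all genes called under the block was not computed, so this count cannot be set beside the shares above. Over all comparisons the block added 18 calls on members and removed 0, and its values are given beside the results they change. Scaling to total counts, which raised the median log2 fold change of all genes by 0.314 in WT and 0.214 in Cfp1-/- cells, left 18 rises and 4 falls in Cfp1-/- cells. DESeq2 size factors gave 14 rises and 10 falls in WT cells. Without replicate 1 of untreated WT cells 11 members rose in WT cells, and the falls in Cfp1-/- cells numbered 3 without replicate 2 and 5 without replicate 1 of treated Cfp1-/- cells, and 4 without replicate 1 of untreated Cfp1-/- cells. The calls in both lines coincided for 15 members that rose and 7 that fell, and no member was called in opposite directions. The 15 include Wnt2b, Wnt8b, Wnt9b, Wnt10a and Wnt11. The share of all genes called in both lines was not computed, so these counts are descriptions. With the study's own limits added, namely a 2.5-fold change or more and a mean normalized count of 200 or more, Wnt3, Wnt9a and Fzd10 were higher and Lef1 was lower in WT cells, where 5.1% of all genes were higher and 2.8% lower. The same limits in Cfp1-/- cells left Wnt3, Wnt9a and Fzd10 as higher and Fzd7, Lef1 and Porcn as lower, where 5.38% and 2.23% of all genes were called.

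**Figure D1:**
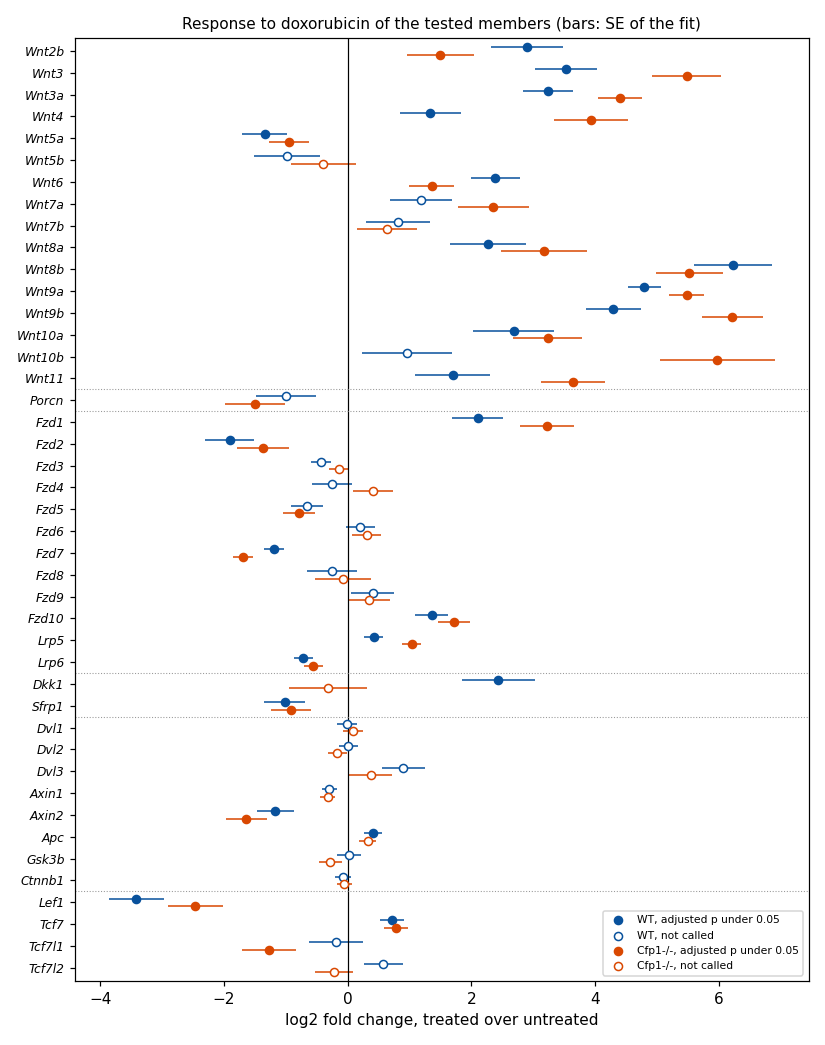
Log2 fold change of treated over untreated cells (x axis) for the 43 tested members, with WT in blue and Cfp1-/- in orange; bars are standard errors of the fit, filled points have an adjusted p under 0.05, and dotted lines part the roles. Most ligands lie to the right of 0 in both lines, while Fzd2, Fzd7, Axin2 and Lef1 lie to the left; the points of Wnt8b in WT cells and of Wnt9b and Wnt10b in Cfp1-/- cells rest on 4 or fewer untreated counts, and their size depends on the prior count of the fit.

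Wnt ligands rose in both lines, Wnt3, Wnt3a and Wnt9a among them, and Wnt5a fell. Of the 10 tested ligands that also passed the filter through an untreated group, 6 rose in WT and 7 in Cfp1-/- cells and 1, Wnt5a, fell in both, with medians of 1.80 and 2.76 on the log2 scale beside 0.06 and 0.01 over all genes tested. Of all genes tested, 26.5% rose and 21.8% fell in WT cells, and 27.8% rose and 21% fell in Cfp1-/- cells. Of the 6 that passed through treated groups alone, 5 were called higher in WT and all 6 in Cfp1-/- cells. Wnt2b, Wnt8b, Wnt9b and Wnt10a passed through the treated groups of both lines and had to differ in both. Wnt10b and Wnt11 passed through treated Cfp1-/- cells alone and had to differ there. The calls on these 6 are descriptions. The summed normalized counts of all 19 ligands went from 334 and 650.5 to 2773 and 2797 in WT and from 583 and 451 to 3613 and 3462 in Cfp1-/- cells. The number of ligands with at least 20 raw counts in both replicates was 7 in untreated and 10 in treated WT cells, and 4 and 14 in Cfp1-/- cells.

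**Figure D2:**
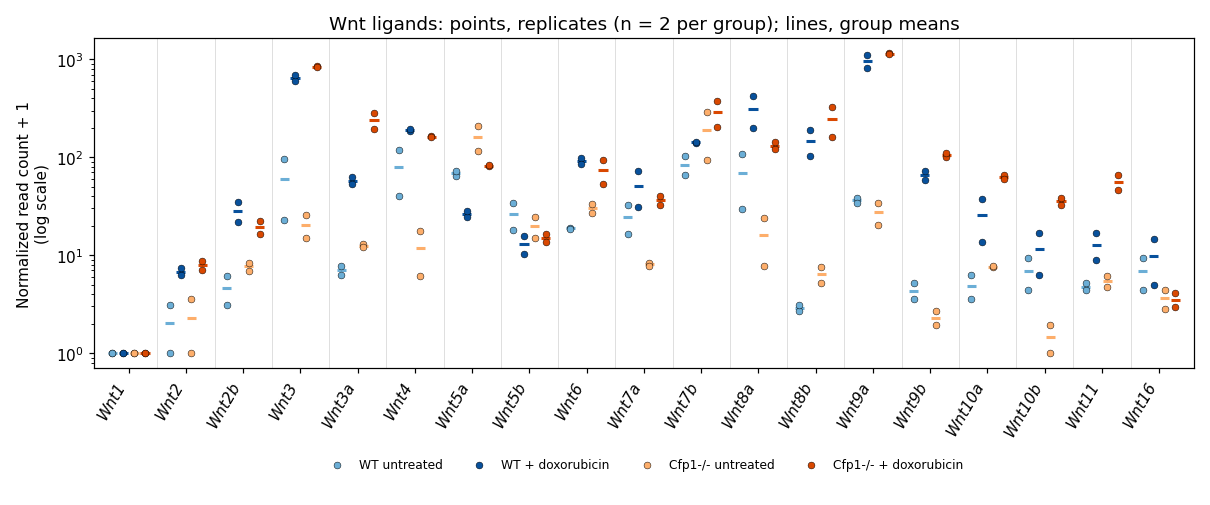
Normalized read count plus 1 (y axis, log scale) of the 19 Wnt ligands in the 4 groups; points are biological replicates (n = 2) and short lines are group means. Wnt3 and Wnt9a reach the highest treated counts of the ligands, from 597 to 1165 normalized counts in the 4 treated libraries, and Wnt5a is lower in treated than in untreated libraries of each line.

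Wnt9a, whose protein acts in joint and blood development, had the highest treated count of all ligands. Wnt9a had 37.4 and 33.4 normalized counts in untreated and 1107 and 815 in treated WT cells, and 33.4 and 19.4 and then 1165 and 1125 in Cfp1-/- cells. All 4 treated libraries were far above all 4 untreated ones. Wnt9a changed by 4.8 ± 0.27 (SE) in WT and 5.48 ± 0.28 in Cfp1-/- cells on the log2 scale (edgeR adjusted p = 3.43e-06 and 3.52e-06).

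Wnt3, required for the primitive streak, rose in both lines. Wnt3 had 22.1 and 95.9 normalized counts in untreated and 597 and 698 in treated WT cells, and 13.9 and 24.5 and then 859 and 831 in Cfp1-/- cells. The treated groups lay close together and the untreated groups did not, since untreated WT replicate 2 was the highest of the untreated libraries. On the log2 scale Wnt3 changed by 3.53 ± 0.50 in WT cells and by 5.48 ± 0.56 in Cfp1-/- cells (edgeR adjusted p = 0.000347 and 5.83e-05). Untreated Cfp1-/- against WT cells gave -1.54 ± 0.58 (adjusted p = 0.0646), and -1.49 under the replicate block, where it was called lower (adjusted p = 0.0233). The same untreated WT replicate 2 was high for Wnt4 and Wnt8a, and also for T, a mesoderm factor and Wnt target (42.5 and 167 normalized counts in replicates 1 and 2), and for Fgf5, a marker of primed epiblast (110.4 and 658). The part of this library's state in the ligand values was not tested.

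Wnt3a, the closest relative of Wnt3, rose and reached a higher level without Cfp1. Wnt3a had 6.80 and 5.21 normalized counts in untreated and 61.6 and 51.8 in treated WT cells, and 12.1 and 11 and then 284 and 194 in Cfp1-/- cells, so that none of the 4 groups overlapped. For Wnt3a the log2 fold changes were 3.24 ± 0.40 for WT and 4.4 ± 0.36 for Cfp1-/- cells (edgeR adjusted p = 0.000165 and 1.88e-05). Under doxorubicin the Cfp1-/- level exceeded the WT level by a log2 fold change of 2.1 ± 0.31 (adjusted p = 0.00184).

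Wnt9b, an organizer of kidney tubule formation, went from 2.55 and 4.17 to 57.6 and 71.8 normalized counts in WT and from 0.927 and 1.69 to 100.1 and 109.9 in Cfp1-/- cells. The log2 fold change in WT cells was 4.29 ± 0.45 (edgeR adjusted p = 5.94e-05). Untreated Cfp1-/- cells had 3 raw counts in all against 212 in treated cells, a ratio of 79.3-fold (95% counting interval 26.8 to 387).

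These 4 ligand genes form 2 neighbouring pairs on chromosome 11, each pair transcribed away from each other. In NCBIm37, Wnt3a (chr11:59061535-59104254, minus strand) and Wnt9a (chr11:59120430-59147054, plus strand) are 16175 bases apart, and Wnt9b (chr11:103588678-103611135, minus strand) and Wnt3 (chr11:103635464-103679271, plus strand) are 24328 bases apart. In the remaining ligand pairs, Wnt6 and Wnt10a on chromosome 1 lie in tandem 6196 bases apart and both rose, whereas Wnt10b and Wnt1 on chromosome 15 are transcribed away from each other across 11706 bases and Wnt1 stayed at 0 counts. Because Cfp1 binds CpG, the promoter windows of the 4 risen neighbours are shown with each CpG in capitals, from 250 bases before to 50 bases after the annotated start as given by RefSeq for GRCm38.p6.

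Windows of the Wnt9b and Wnt3 pair and of the Wnt3a and Wnt9a pair, 5′ to 3′ on the strand of the gene, CpG in capitals:
Wnt9b, chr11:103749772-103750071, minus strand: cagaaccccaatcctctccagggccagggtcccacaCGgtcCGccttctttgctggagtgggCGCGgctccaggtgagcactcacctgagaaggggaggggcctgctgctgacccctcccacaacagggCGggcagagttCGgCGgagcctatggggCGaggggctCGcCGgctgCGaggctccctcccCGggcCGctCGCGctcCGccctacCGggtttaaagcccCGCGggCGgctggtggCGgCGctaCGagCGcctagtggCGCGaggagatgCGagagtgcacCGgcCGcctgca
Wnt3, chr11:103773925-103774224, plus strand: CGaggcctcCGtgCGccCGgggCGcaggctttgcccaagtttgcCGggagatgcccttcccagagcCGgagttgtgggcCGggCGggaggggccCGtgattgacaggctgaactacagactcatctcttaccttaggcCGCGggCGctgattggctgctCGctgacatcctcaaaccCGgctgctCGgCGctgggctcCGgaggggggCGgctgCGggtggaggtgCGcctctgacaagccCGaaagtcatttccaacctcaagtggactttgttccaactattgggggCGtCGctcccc
Wnt3a, chr11:59290702-59291001, minus strand: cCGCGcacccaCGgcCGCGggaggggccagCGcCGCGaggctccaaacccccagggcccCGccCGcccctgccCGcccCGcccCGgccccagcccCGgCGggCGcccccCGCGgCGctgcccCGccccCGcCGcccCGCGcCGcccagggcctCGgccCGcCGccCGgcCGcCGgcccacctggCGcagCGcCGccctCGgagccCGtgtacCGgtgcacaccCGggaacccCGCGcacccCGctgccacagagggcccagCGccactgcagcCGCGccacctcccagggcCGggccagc
Wnt9a, chr11:59306680-59306979, plus strand: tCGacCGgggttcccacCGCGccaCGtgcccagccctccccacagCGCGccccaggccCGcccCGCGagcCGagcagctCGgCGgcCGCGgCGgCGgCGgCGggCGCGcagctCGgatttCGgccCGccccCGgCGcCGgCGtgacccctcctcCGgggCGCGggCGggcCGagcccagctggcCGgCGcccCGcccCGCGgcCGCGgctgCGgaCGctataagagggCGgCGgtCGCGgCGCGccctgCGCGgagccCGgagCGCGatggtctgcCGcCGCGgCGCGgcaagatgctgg

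The windows held 29 CpG for Wnt9b, 24 for Wnt3, 45 for Wnt3a and 58 for Wnt9a. Over the 41 windows of the 32 members kept from the RefSeq table the median was 29 CpG, beside 7 over all 32851 windows of 27025 genes, which include noncoding genes. Any windows on chromosome 18, where Wnt8a, Fzd8 and Apc lie, were left out for the members but not for all genes. The 18 windows of 15 ligands had a median of 28 and a range of 4 to 58. The GC box letters GGGCGG, on either strand, were found in 78% of member windows and 35.7% of all windows, and the Tcf/Lef core letters CTTTGA in 14.6% and 16%. TATAAA was found in 19.5% and 13.6%, and the p53 half-site, in the Wnt11 window alone among the members, in 2.44% and 8.36%. These matches are descriptions of the letters, and the windows of members differ from the whole in composition (median GC content 70% against 52.7%).

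Wnt4, a regulator of gonad and kidney formation, showed the largest of the response differences with at least 20 counts in each treated library. Wnt4 had 39.1 and 117 normalized counts in untreated and 183 and 194 in treated WT cells, and 16.7 and 5.07 and then 163 and 159 in Cfp1-/- cells. The treated libraries of both lines were close together, while the untreated Cfp1-/- libraries lay below both untreated WT libraries. Wnt4 changed by 1.34 ± 0.49 in WT and 3.94 ± 0.60 in Cfp1-/- cells on the log2 scale (edgeR adjusted p = 0.0478 and 0.000562), and untreated Cfp1-/- cells were lower than WT cells, with a log2 fold change of -2.8 ± 0.60 (adjusted p = 0.00659). The response difference was 2.6 ± 0.77 with a 95% interval of 0.88 to 4.32 and was not called by edgeR (adjusted p = 0.272), whereas DESeq2's Wald test called it.

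Wnt8a, a ligand of the early primitive streak, had 28.9 and 106 normalized counts in untreated and 198 and 424 in treated WT cells, and 23.2 and 6.76 and then 119 and 142 in Cfp1-/- cells. The untreated libraries of each line differed by several fold between replicates, yet no treated library overlapped with an untreated one of its line. On the log2 scale Wnt8a changed by 2.27 ± 0.61 in WT cells and by 3.17 ± 0.70 in Cfp1-/- cells (edgeR adjusted p = 0.0127 and 0.00463). Untreated Cfp1-/- cells were lower than untreated WT cells, with a log2 fold change of -2.14 ± 0.71 (adjusted p = 0.0429).

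Wnt8b, a ligand of the embryonic forebrain, had 1.70 and 2.08 normalized counts in untreated and 189.9 and 102 in treated WT cells, and 6.49 and 4.23 and then 159 and 327 in Cfp1-/- cells. It was near 0 in all untreated libraries and above 100 in all treated ones. In WT cells 4 raw counts stood against 242, a ratio of 75.6-fold (95% counting interval 29.1 to 279.6). In Cfp1-/- cells it changed by 5.52 ± 0.54 on the log2 scale (edgeR adjusted p = 4.81e-05), and 5.76 without the damaged run. Its promoter window held only 6 CpG.

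Wnt6 and Wnt10a, the tandem neighbours, rose in both lines. Wnt6, an epithelial ligand, went from 17.8 and 17.7 to 96.9 and 84.5 normalized counts in WT and from 32.4 and 26.2 to 94 and 52.1 in Cfp1-/- cells. For Wnt6 the log2 fold changes were 2.39 ± 0.39 for WT and 1.36 ± 0.37 for Cfp1-/- cells (edgeR adjusted p = 0.000877 and 0.0131). Wnt10a, a ligand of tooth and skin appendages, went from 2.55 and 5.21 to 36.7 and 12.7 normalized counts in WT and from 6.49 and 6.76 to 64.3 and 58.8 in Cfp1-/- cells. Wnt10a changed by 2.68 ± 0.65 in WT and 3.23 ± 0.56 in Cfp1-/- cells on the log2 scale (edgeR adjusted p = 0.00741 and 0.00118). Neither gene had a treated library as low as an untreated one of its line. Between the treated lines Wnt10a was not called (adjusted p = 0.0687) but was called higher in Cfp1-/- cells under the replicate block (log2 fold change 1.42, adjusted p = 0.0285).

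Wnt10b, a ligand that restrains fat cell formation, rose in Cfp1-/- cells. It passed the filter through treated Cfp1-/- cells alone, so the filter favoured a high level there and its calls are descriptions. It had 0.927 and 0 normalized counts in untreated and 31.7 and 37.6 in treated Cfp1-/- cells, or 1 against 70 raw counts, a ratio of 78.5-fold (95% counting interval 13.6 to 3145). In WT cells it had 3.40 and 8.34 and then 5.24 and 15.8 normalized counts, with overlapping groups and no call (edgeR adjusted p = 0.302). The response difference was not called either (adjusted p = 0.210). Under the replicate block, Wnt10b in Cfp1-/- cells was called lower than in WT cells untreated (adjusted p = 0.0332, from 0.0534) and higher treated (0.0243, from 0.0669).

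Wnt11, a ligand of non-canonical signalling and cell movement, was higher in treated Cfp1-/- than in treated WT cells. It passed the filter through treated Cfp1-/- cells alone, so the filter favoured this difference and its calls are descriptions. It had 3.40 and 4.17 normalized counts in untreated and 7.86 and 15.8 in treated WT cells, and 3.71 and 5.07 and then 44.9 and 64.6 in Cfp1-/- cells. The treated Cfp1-/- libraries stood apart from all others. On the log2 scale Wnt11 changed by 1.7 ± 0.61 in WT cells and by 3.64 ± 0.51 in Cfp1-/- cells (edgeR adjusted p = 0.0417 and 0.000386), and 2.19 ± 0.46 between the treated lines (adjusted p = 0.00904). DESeq2's Wald test did not call the rise in WT cells (adjusted p = 0.126), nor did edgeR without the filter.

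Wnt2b, which acts in lung specification, went from 5.10 and 2.08 to 21 and 33.8 normalized counts in WT and from 7.42 and 5.92 to 21.4 and 15.4 in Cfp1-/- cells. For Wnt2b the log2 fold changes were 2.9 ± 0.58 for WT and 1.5 ± 0.54 for Cfp1-/- cells (edgeR adjusted p = 0.00277 and 0.0444). The call in Cfp1-/- cells was lost with DESeq2's Wald test (adjusted p = 0.163), without the filter and without the damaged run (edgeR adjusted p = 0.0556). Wnt7a, a ligand of limb and reproductive tract patterning, rose from 7.42 and 6.76 to 31.7 and 39.5 normalized counts in Cfp1-/- cells, or by 2.35 ± 0.58 on the log2 scale (edgeR adjusted p = 0.00776). In WT cells Wnt7a had 15.3 and 31.3 untreated and 30.1 and 70.8 treated, where the groups overlapped and no call was made (adjusted p = 0.0771). Under the replicate block Wnt7a was called as higher in treated WT cells (1.15, adjusted p = 0.0293) and as lower in untreated Cfp1-/- than in untreated WT cells (-1.63, adjusted p = 0.0202).

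Wnt5a, the main ligand of non-canonical signalling, was the ligand that fell. Wnt5a had 62.9 and 71.9 normalized counts in untreated and 23.6 and 27.5 in treated WT cells, and 115 and 206 and then 79.7 and 81.9 in Cfp1-/- cells. Untreated libraries lay above treated ones in each line, and Cfp1-/- libraries lay above WT libraries in each condition. Wnt5a changed by -1.34 ± 0.36 in WT and -0.95 ± 0.32 in Cfp1-/- cells on the log2 scale (edgeR adjusted p = 0.0124 and 0.0335). Wnt5a was higher in Cfp1-/- cells, at a log2 fold change of 1.28 ± 0.32 untreated and 1.68 ± 0.36 treated (adjusted p = 0.0139 and 0.00958).

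The remaining ligands were not called in any comparison by edgeR without the block or not tested. Wnt5b, a relative of Wnt5a, ranged from 9.17 to 33.4 normalized counts over the 8 libraries, and Wnt7b, a ligand of lung and placenta, from 64.6 to 371. DESeq2's Wald test called Wnt7b higher in untreated Cfp1-/- than in untreated WT cells (log2 fold change 1.19, adjusted p = 0.0448, against 0.0886 by edgeR). Wnt2 had 10 raw counts in treated against 2 in untreated WT cells, a ratio of 6.25-fold (95% counting interval 1.33 to 58.6), and 14 against 3 in Cfp1-/- cells, a ratio of 5.23-fold (95% counting interval 1.46 to 28.4). Wnt16 ranged from 1.85 to 13.7 normalized counts. Counting intervals cover counting error alone.

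Several ligand calls were lost when 1 library was left out. The call on Wnt4 in WT cells was lost in 5 of the 8 fits that left out a library (log2 fold changes of 0.74 to 2.30), with the lowest value without replicate 1 and the highest without replicate 2 of untreated WT cells. Without the latter, the difference of Wnt4 between the untreated lines was -1.83 and the WT response of Wnt8a 3.46, both still called, and without replicate 1 of untreated Cfp1-/- cells the difference of Wnt8a between the untreated lines was -3.23, also still called. That WT call on Wnt4 was also lost with DESeq2 size factors (1.29), without the second runs of both treated replicates 1 (1.25) and with the 2 groups alone (1.34). The call on Wnt2b in Cfp1-/- cells was lost in 8 of the 8 fits that left out a library (log2 fold changes of 1.22 to 1.72), and that on Wnt11 in WT cells in 7 of the 8 fits that left out a library (log2 fold changes of 1.08 to 2.08). The Cfp1-/- rise of Wnt6 was not called without replicate 2 of untreated Cfp1-/- cells (1.19) or replicate 1 of treated Cfp1-/- cells (0.85), and that of Wnt7a was not called without replicate 2 of untreated Cfp1-/- cells (2.27). The WT rise of Wnt8a was not called without replicate 2 of treated WT cells (1.61), and that of Wnt10a was not called without replicate 1 of untreated WT cells (2.23) or replicate 1 of treated WT cells (1.76). The fall of Wnt5a was not called in WT cells without replicate 1 of treated WT cells (-1.25), and in Cfp1-/- cells without replicate 2 of untreated Cfp1-/- cells (-0.48), replicate 1 of treated Cfp1-/- cells (-0.95) or replicate 2 of treated Cfp1-/- cells (-0.96). The genotype differences in untreated cells were not called for Wnt5a without replicate 1 of untreated WT cells (1.2) or replicate 2 of untreated Cfp1-/- cells (0.81), nor for Wnt8a without replicate 2 of untreated WT cells (-0.94), replicate 2 of untreated Cfp1-/- cells (-1.48), replicate 1 of treated Cfp1-/- cells (-2.14) or replicate 2 of treated Cfp1-/- cells (-2.14). The difference of Wnt11 between the treated lines was not called without replicate 1 of treated WT cells (1.8) or replicate 2 of treated Cfp1-/- cells (1.92).

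Porcn, the acyltransferase that lipidates Wnt proteins in the endoplasmic reticulum, had 299 and 147 normalized counts in untreated and 149 and 69.7 in treated WT cells, and 534 and 243 and then 152 and 115 in Cfp1-/- cells. Replicate 1 was the higher replicate in all groups. Porcn changed by -1.0 ± 0.49 on the log2 scale in WT cells, not called (edgeR adjusted p = 0.121), and -1.5 ± 0.48 in Cfp1-/- cells (adjusted p = 0.0268). Under the replicate block the fall in WT cells was called (-0.99, adjusted p = 0.00346), as was a higher level in untreated Cfp1-/- than in untreated WT cells (0.81, adjusted p = 0.00998, from 0.197 without the block). Porcn lies on chromosome X, and without the damaged run the Cfp1-/- value was -1.14 and no longer called (adjusted p = 0.0990). With the block as well, the call stood without that run (-1.10). In the fit without the block it was not called without replicate 1 of untreated Cfp1-/- cells (-0.83), replicate 1 of treated Cfp1-/- cells (-1.74) or replicate 2 of treated Cfp1-/- cells (-1.31) either.

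Of the receptors, Fzd1, Fzd10 and Lrp5 rose and Fzd2, Fzd7 and Lrp6 fell in both lines. In WT cells 3 of 12 rose and 3 fell, and in Cfp1-/- cells 3 rose and 4 fell. These are shares of 25% and 25% in WT and 25% and 33.3% in Cfp1-/- cells, of which those in WT cells and the rises in Cfp1-/- cells were near the 26.5%, 21.8% and 27.8% of all genes, and the falls in Cfp1-/- cells stood beside 21%. Their median log2 fold changes were -0.26 (WT) and 0.12 (Cfp1-/-). The summed normalized counts of the 12 receptors went from 15236 and 14292 to 10599.9 and 8928 in WT and from 12589 and 12184 to 9844 and 9206 in Cfp1-/- cells.

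**Figure D3:**
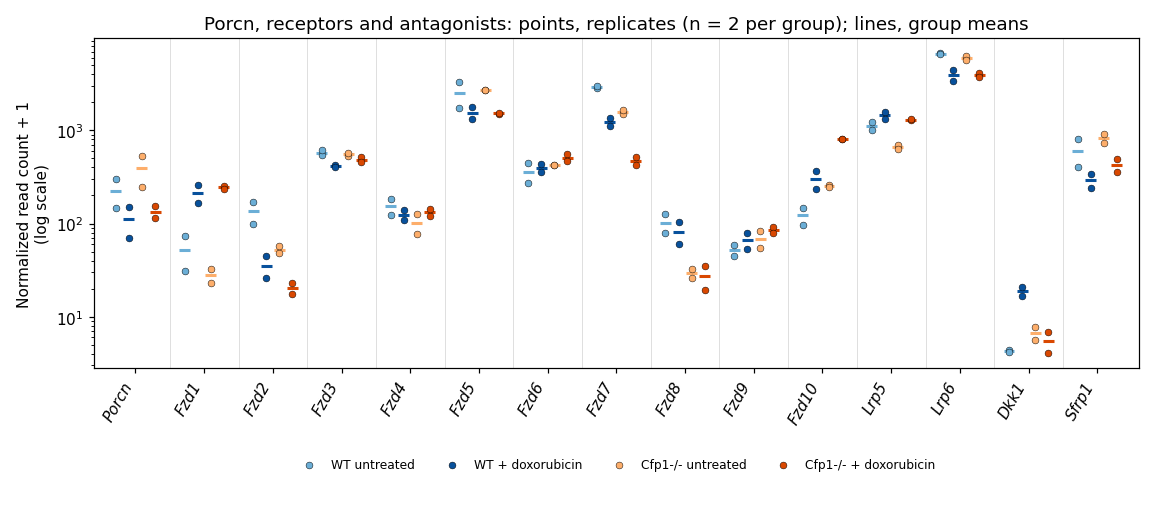
Normalized read count plus 1 (y axis, log scale) of Porcn, the 12 receptors and the antagonists Dkk1 and Sfrp1 in the 4 groups; points are biological replicates (n = 2) and short lines are group means. Fzd7 is highest in untreated WT and lowest in treated Cfp1-/- libraries, and Fzd10 shows the opposite order.

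Fzd7, the most abundant Frizzled of untreated WT cells per kb, fell with treatment and was lower without Cfp1. Fzd7 had 2851 and 2965 normalized counts in untreated and 1340.0 and 1124 in treated WT cells, and 1485 and 1656 and then 519.8 and 421 in Cfp1-/- cells, with no overlap between any of the groups. On the log2 scale Fzd7 changed by -1.19 ± 0.15 in WT cells and by -1.7 ± 0.16 in Cfp1-/- cells (edgeR adjusted p = 0.000214 and 3.72e-05). Fzd7 was lower in Cfp1-/- cells, at a log2 fold change of -0.86 ± 0.15 untreated and -1.36 ± 0.16 treated (adjusted p = 0.00278 and 0.000667).

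Fzd10, a receptor of the canonical pathway, showed the reverse. Fzd10 had 95.1 and 147 normalized counts in untreated and 232 and 364 in treated WT cells, and 258 and 248 and then 798 and 817 in Cfp1-/- cells. The treated Cfp1-/- libraries lay above all others. For Fzd10 the log2 fold changes were 1.36 ± 0.27 for WT and 1.72 ± 0.26 for Cfp1-/- cells (edgeR adjusted p = 0.00257 and 0.000560). Fzd10 was higher in Cfp1-/- cells, at a log2 fold change of 1.1 ± 0.27 untreated and 1.46 ± 0.26 treated (adjusted p = 0.0119 and 0.00412).

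Fzd1, another canonical receptor, had 29.7 and 73 normalized counts in untreated and 165 and 257 in treated WT cells, and 22.2 and 31.3 and then 252 and 236 in Cfp1-/- cells. The treated libraries of both lines overlapped with each other and with no untreated library. Fzd1 changed by 2.1 ± 0.41 in WT and 3.22 ± 0.43 in Cfp1-/- cells on the log2 scale (edgeR adjusted p = 0.00232 and 0.000291).

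Fzd2, a receptor used in both canonical and Wnt5a signalling, had 97.7 and 171 normalized counts in untreated and 24.9 and 43.3 in treated WT cells, and 47.3 and 55.8 and then 16.3 and 22.2 in Cfp1-/- cells. Untreated WT libraries stood above all others. On the log2 scale Fzd2 changed by -1.91 ± 0.40 in WT cells and by -1.37 ± 0.43 in Cfp1-/- cells (edgeR adjusted p = 0.00352 and 0.0236), and untreated Cfp1-/- cells were lower, with a log2 fold change of -1.35 ± 0.38 (adjusted p = 0.0226).

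Fzd8, a canonical receptor, differed by genotype and not detectably by treatment. Fzd8 had 77.3 and 124 normalized counts in untreated and 58.9 and 102 in treated WT cells, and 25 and 31.3 and then 33.7 and 18.3 in Cfp1-/- cells, so that each WT library lay above each Cfp1-/- library. Fzd8 was lower in Cfp1-/- cells, at a log2 fold change of -1.8 ± 0.43 untreated and -1.61 ± 0.44 treated (edgeR adjusted p = 0.0109 and 0.0254). The response to treatment was -0.26 ± 0.41 with a 95% interval of -1.17 to 0.65 in WT and -0.08 ± 0.46 with an interval of -1.10 to 0.95 in Cfp1-/- cells.

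The co-receptor Lrp5 had 1012 and 1224 normalized counts in untreated and 1582 and 1318 in treated WT cells, and 688 and 622 and then 1298 and 1310.1 in Cfp1-/- cells. The untreated lines stood apart and the treated lines were close to each other. For Lrp5 the log2 fold changes were 0.42 ± 0.16 for WT and 1.04 ± 0.16 for Cfp1-/- cells (edgeR adjusted p = 0.0470 and 0.000572), and untreated Cfp1-/- cells were lower, with a log2 fold change of -0.74 ± 0.16 (adjusted p = 0.00621). The WT call was lost with DESeq2's Wald test (adjusted p = 0.0883), with DESeq2 size factors, without the filter and with the 2 groups alone, at log2 fold changes of 0.38, 0.38, 0.42 and 0.43. Its close relative Lrp6 went the other way, from 6786 and 6549.7 to 4466 and 3365 normalized counts in WT and from 6256 and 5651 to 4129 and 3719 in Cfp1-/- cells. Lrp6 changed by -0.72 ± 0.15 in WT and -0.56 ± 0.15 in Cfp1-/- cells on the log2 scale (edgeR adjusted p = 0.00381 and 0.0136), with no overlap between treated and untreated libraries.

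Fzd5, the receptor with the second largest level per kb among the Frizzled genes of untreated WT cells, fell in Cfp1-/- cells from 2723 and 2685 to 1515 and 1528 normalized counts (log2 fold change -0.79 ± 0.26, edgeR adjusted p = 0.0298). In WT cells it had 3310.2 and 1743 untreated and 1767 and 1323 treated, with overlapping groups and no call by edgeR without the block (log2 fold change -0.67 ± 0.26, adjusted p = 0.0572), but it was called lower under the replicate block (-0.64, adjusted p = 0.0136) and by DESeq2's Wald test (-0.71, adjusted p = 0.0209). Fzd3 and Fzd6, both known for planar cell polarity, Fzd4, the receptor of retinal vessels, and Fzd9 were not called in any comparison by edgeR without the block. They ranged over the 8 libraries from 408 to 616, 272 to 554, 76.0 to 182 and 44.2 to 90.9 normalized counts. Fzd3 was called lower in treated WT cells under the replicate block (-0.43, adjusted p = 0.0360) and by DESeq2's Wald test (-0.48, adjusted p = 0.0378), against 0.0546 in edgeR without the block.

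Receptor calls were also lost when 1 library was left out, often with little change in the fold. The rise of Lrp5 in WT cells was lost in 7 of the 8 fits that left out a library (log2 fold changes of 0.28 to 0.55), and untreated Cfp1-/- against WT cells was not called for Lrp5 without replicate 2 of untreated WT cells (-0.6). The fall of Fzd2 in Cfp1-/- cells was not called without replicate 1 of untreated Cfp1-/- cells (-1.49), replicate 2 of untreated Cfp1-/- cells (-1.26), replicate 1 of treated Cfp1-/- cells (-1.19) or replicate 2 of treated Cfp1-/- cells (-1.6), and its difference between the untreated lines was not called without replicate 2 of untreated WT cells (-0.9), replicate 1 of untreated Cfp1-/- cells (-1.22) or replicate 2 of untreated Cfp1-/- cells (-1.46). For Fzd8 the difference was not called in untreated cells without replicate 2 of untreated WT cells (-1.43) or replicate 1 of untreated Cfp1-/- cells (-1.63), nor in treated cells without replicate 2 of treated WT cells (-1.16) or replicate 2 of treated Cfp1-/- cells (-1.23). The difference of Fzd10 between the untreated lines was not called without replicate 1 of untreated WT cells (0.82) or replicate 1 of untreated Cfp1-/- cells (1.08). The falls in Cfp1-/- cells were not called for Fzd5 without replicate 1 of untreated Cfp1-/- cells (-0.78), replicate 2 of untreated Cfp1-/- cells (-0.81), replicate 1 of treated Cfp1-/- cells (-0.8) or replicate 2 of treated Cfp1-/- cells (-0.79), nor for Lrp6 without replicate 1 of untreated Cfp1-/- cells (-0.49) or replicate 2 of treated Cfp1-/- cells (-0.48).

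The antagonist Sfrp1, a secreted Frizzled-related protein that binds Wnt ligands, was the more abundant of the pair. Sfrp1 had 805 and 400.3 normalized counts in untreated and 341 and 238 in treated WT cells, and 909 and 732 and then 486 and 355 in Cfp1-/- cells. Treated libraries lay below untreated ones in each line. Sfrp1 changed on the log2 scale by -1.02 ± 0.33 in WT cells and by -0.92 ± 0.32 in Cfp1-/- cells (edgeR adjusted p = 0.0282 and 0.0390). The call was lost in WT cells without replicate 1 of untreated WT cells (-0.43) or replicate 2 of treated WT cells (-0.79), and in Cfp1-/- cells without replicate 1 of untreated Cfp1-/- cells (-0.77), replicate 2 of untreated Cfp1-/- cells (-1.08), replicate 1 of treated Cfp1-/- cells (-1.19) or replicate 2 of treated Cfp1-/- cells (-0.71). With the 2 groups alone the WT call was lost too (-1.01). Under the replicate block Sfrp1 was called higher in Cfp1-/- than in WT cells, untreated (0.53, adjusted p = 0.0284, from 0.279) and treated (0.57, adjusted p = 0.0305, from 0.232).

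Dkk1, an inhibitor that binds Lrp5 and Lrp6, was near the floor in every library, with 4 and 3 raw counts in untreated and 15 and 15 in treated WT cells, and 5 and 8 and then 3 and 6 in Cfp1-/- cells. The treated WT libraries were the highest, and Dkk1 passed the filter through them alone, so its calls are descriptions. The log2 fold change was 2.43 ± 0.59 in WT cells (edgeR adjusted p = 0.00745) and was not called in Cfp1-/- cells (adjusted p = 0.710). Treated Cfp1-/- cells were lower than treated WT cells, with a log2 fold change of -1.94 ± 0.57 (adjusted p = 0.0332), and -1.68 without the damaged run (adjusted p = 0.0457). That call was lost in 6 of the 8 fits that left out a library (log2 fold changes of -2.45 to -1.58), and DESeq2's Wald test called neither.

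Of the intracellular transducers, Axin2 fell in both lines and Apc rose in WT cells. In WT cells 1 of 8 rose and 1 fell, or 12.5% in each direction beside 26.5% and 21.8% of all genes, and in Cfp1-/- cells 0 rose and 1 fell, beside 27.8% and 21% of all genes. Their median log2 fold changes were -0.00079 (WT) and -0.11 (Cfp1-/-). The summed normalized counts of the 8 genes were 41778 and 40888 in untreated and 42493 and 39068 in treated WT cells, and 36367 and 36462 and then 37417 and 33585 in Cfp1-/- cells.

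**Figure D4:**
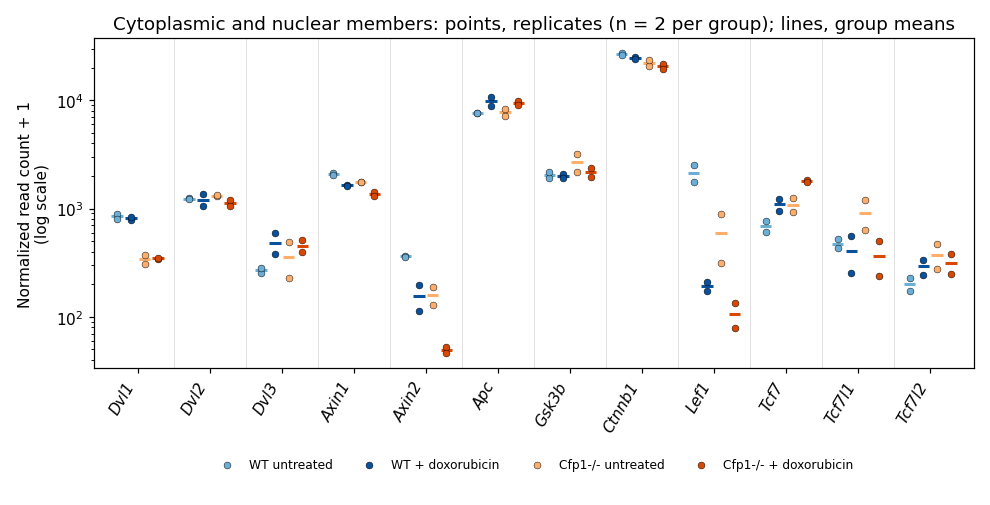
Normalized read count plus 1 (y axis, log scale) of the 8 intracellular transducers and 4 Tcf/Lef factors in the 4 groups; points are biological replicates (n = 2) and short lines are group means. Axin2 and Lef1 are lower in treated libraries of both lines, Dvl1 is lower in all Cfp1-/- libraries, and Ctnnb1 lies between 19543 and 27344 normalized counts in all 8 libraries.

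Axin2, both a scaffold of the destruction complex and a widely used target gene of the pathway, fell with treatment and was lower without Cfp1. Axin2 had 365 and 359.6 normalized counts in untreated and 113 and 198 in treated WT cells, and 186 and 127 and then 52.1 and 45.3 in Cfp1-/- cells. Treated Cfp1-/- libraries were the lowest of all, and treated WT libraries overlapped with untreated Cfp1-/- ones. For Axin2 the log2 fold changes were -1.17 ± 0.30 for WT and -1.64 ± 0.33 for Cfp1-/- cells (edgeR adjusted p = 0.0103 and 0.00261). Axin2 was lower in Cfp1-/- cells, at a log2 change of -1.18 ± 0.30 untreated and -1.65 ± 0.33 treated (adjusted p = 0.0144 and 0.00695). Calls on Axin2 were lost in the WT response without replicate 1 of treated WT cells (-0.83), between untreated lines without replicate 2 of untreated Cfp1-/- cells (-0.92) and between treated lines without replicate 2 of treated Cfp1-/- cells (-1.55).

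Dvl1, a Dishevelled transducer between receptor and destruction complex, differed by genotype. Dvl1 had 893 and 802 normalized counts in untreated and 789.9 and 839.7 in treated WT cells, and 309 and 368 and then 344 and 349 in Cfp1-/- cells, so that each Cfp1-/- library lay below each WT library. Dvl1 was lower in Cfp1-/- cells, at a log2 fold change of -1.3 ± 0.16 untreated and -1.21 ± 0.16 treated (edgeR adjusted p = 0.000528 and 0.00123). The response to treatment was -0.01 ± 0.16 with a 95% interval of -0.36 to 0.34 in WT and 0.08 ± 0.16 with an interval of -0.29 to 0.44 in Cfp1-/- cells. Its relatives Dvl2 and Dvl3 were not called in any comparison by edgeR without the block and ranged from 1049.8 to 1352 and from 227 to 588 normalized counts. Dvl3 was called higher in treated WT cells under the replicate block (0.85, adjusted p = 0.0123) and by DESeq2's Wald test (0.86, adjusted p = 0.0350), against 0.0570 in edgeR without the block.

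Apc, the tumour suppressor scaffold, rose in WT cells from 7629 and 7689 to 10809.5 and 8908 normalized counts (log2 fold change 0.41 ± 0.14, edgeR adjusted p = 0.0367), a call that was lost without replicate 1 of untreated WT cells (0.4), replicate 2 of untreated WT cells (0.4) or replicate 1 of treated WT cells (0.26), with DESeq2 size factors (0.37) and with DESeq2's Wald test (adjusted p = 0.0582). In Cfp1-/- cells Apc had 8296 and 7145 untreated and 9795 and 8947 treated and was not called (adjusted p = 0.0859) except under the replicate block (0.32, adjusted p = 0.0287). Axin1, the constitutive scaffold, ranged from 1299 to 2129 normalized counts, Gsk3b, the kinase, from 1917 to 3217, and Ctnnb1 from 19543 to 27344, and none of them was called in any comparison by edgeR without the block. Axin1 was called lower in response to treatment under the replicate block, at -0.29 in WT and -0.33 in Cfp1-/- cells (adjusted p = 0.0479 and 0.0307), and by DESeq2's Wald test in Cfp1-/- cells (-0.37, adjusted p = 0.0327). The response of Ctnnb1 was -0.08 ± 0.12 with a 95% interval of -0.36 to 0.20 in WT and -0.05 ± 0.12 with an interval of -0.33 to 0.23 in Cfp1-/- cells.

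Of the 4 Tcf/Lef factors, Tcf7 rose and Lef1 fell in both lines, and Tcf7l1 fell in Cfp1-/- cells. Lef1, an activating factor and itself a target of the pathway, showed the largest fall of all members. Lef1 had 1746 and 2506 normalized counts in untreated and 173 and 210.2 in treated WT cells, and 316 and 881 and then 77.6 and 132 in Cfp1-/- cells. The untreated WT libraries were the highest and the treated Cfp1-/- libraries the lowest. Lef1 changed by -3.42 ± 0.45 in WT and -2.47 ± 0.45 in Cfp1-/- cells on the log2 scale (edgeR adjusted p = 0.000233 and 0.00156). Untreated Cfp1-/- cells were lower, with a log2 fold change of -1.8 ± 0.41 (adjusted p = 0.00888), while the treated lines were not called apart (log2 fold change -0.85 ± 0.45, adjusted p = 0.195) except under the replicate block (-0.88, adjusted p = 0.0200). Without replicate 2 of untreated Cfp1-/- cells the Cfp1-/- response of Lef1 was -1.56 and the difference between the untreated lines -2.71, both still called.

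The windows of the genes for Lef1 and Axin2, the falling members that are also targets of the pathway, are shown for comparison with those of the rising ligands, with each CpG in capitals and from the same RefSeq table for GRCm38.p6. The Lef1 window is the first of 4 listed and held 18 CpG, and the Axin2 window held 31.
Lef1, chr3:131110047-131110346, plus strand: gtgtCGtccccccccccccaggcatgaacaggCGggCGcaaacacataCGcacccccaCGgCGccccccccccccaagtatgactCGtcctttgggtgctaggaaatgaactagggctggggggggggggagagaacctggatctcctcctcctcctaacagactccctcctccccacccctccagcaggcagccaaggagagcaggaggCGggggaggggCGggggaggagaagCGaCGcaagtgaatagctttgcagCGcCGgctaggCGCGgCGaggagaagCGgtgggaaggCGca
Axin2, chr11:108920099-108920398, plus strand: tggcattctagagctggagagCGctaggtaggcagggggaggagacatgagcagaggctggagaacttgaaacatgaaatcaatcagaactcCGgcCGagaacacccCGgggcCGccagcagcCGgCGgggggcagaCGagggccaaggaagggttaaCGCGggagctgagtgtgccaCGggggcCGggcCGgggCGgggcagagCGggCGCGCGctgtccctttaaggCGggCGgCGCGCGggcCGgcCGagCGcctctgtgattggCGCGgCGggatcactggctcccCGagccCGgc

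Tcf7, which encodes Tcf1, an activating partner of beta-catenin, had 609.9 and 762 normalized counts in untreated and 1235 and 952 in treated WT cells, and 1239 and 928 and then 1846 and 1761 in Cfp1-/- cells. Treated libraries lay above untreated ones in each line. Tcf7 changed on the log2 scale by 0.72 ± 0.20 in WT cells and by 0.78 ± 0.19 in Cfp1-/- cells (edgeR adjusted p = 0.0133 and 0.00853). Tcf7 was higher in Cfp1-/- cells, at a log2 fold change of 0.69 ± 0.20 untreated and 0.75 ± 0.19 treated (adjusted p = 0.0228 and 0.0211). Calls on Tcf7 were lost in the WT response without replicate 1 of untreated WT cells (0.57) or replicate 1 of treated WT cells (0.52), in the Cfp1-/- response without replicate 2 of untreated Cfp1-/- cells (0.57), between untreated lines without replicate 1 of untreated WT cells (0.55) or replicate 1 of untreated Cfp1-/- cells (0.48) and between treated lines without replicate 2 of treated WT cells (0.57), replicate 1 of treated Cfp1-/- cells (0.7) or replicate 2 of treated Cfp1-/- cells (0.79).

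Tcf7l1, known as the repressive Tcf3 of ES cells, had 518 and 431 normalized counts in untreated and 557 and 253 in treated WT cells, and 1190.4 and 634 and then 495 and 237 in Cfp1-/- cells. Replicate 1 exceeded replicate 2 in all groups, and treated and untreated libraries overlapped in WT but not in Cfp1-/- cells. Tcf7l1 changed by -0.19 ± 0.44 on the log2 scale in WT cells, not called (edgeR adjusted p = 0.750), and -1.27 ± 0.44 in Cfp1-/- cells (adjusted p = 0.0369), which was lost without replicate 1 of untreated Cfp1-/- cells (-0.76) or replicate 2 of treated Cfp1-/- cells (-0.83) and was -1.92 without replicate 1 of treated Cfp1-/- cells. Under the replicate block Tcf7l1 was called higher in untreated Cfp1-/- than in untreated WT cells (0.89, adjusted p = 0.00358, from 0.113). Tcf7l2, the factor of intestinal epithelium, had 174 and 228 normalized counts in untreated WT and 474 and 275 in untreated Cfp1-/- cells, a log2 fold change of 0.93 ± 0.32 (edgeR adjusted p = 0.0482) that was lost in 5 of the 8 fits that left out a library (log2 fold changes of 0.50 to 1.27). Its treated libraries had 337 and 245 normalized counts in WT and 248 and 376 in Cfp1-/- cells, and no other comparison of it was called. In Cfp1-/- cells its response was -0.22 ± 0.31, and 0.05 without the damaged run.

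Between the lines, 4 members were higher and 9 lower in untreated Cfp1-/- than in untreated WT cells, where 17.9% of all genes tested were higher and 16.1% lower. The higher ones were Wnt5a, Fzd10, Tcf7 and Tcf7l2, and the lower ones were Wnt4, Wnt8a, Fzd2, Fzd7, Fzd8, Lrp5, Dvl1, Axin2 and Lef1. Under doxorubicin 5 members were higher, namely Wnt3a, Wnt5a, Wnt11, Fzd10 and Tcf7, and 5 were lower, namely Fzd7, Fzd8, Dkk1, Dvl1 and Axin2, where 15.1% and 10.8% of all genes were called. Of the 43 tested members these were 9.3% and 20.9% in untreated cells, and 11.6% in each direction under doxorubicin, where the lower share was near that of all genes. Wnt11 had passed the filter only through treated Cfp1-/- cells and Dkk1 only through treated WT cells, so both had to differ. With the replicate number as a block, 7 members were higher in untreated and 8 in treated Cfp1-/- cells. The shares of all genes called under the block were not computed, so these counts cannot be set beside the shares above. Leaving out 1 library gave 1 to 5 higher and 5 to 12 lower members in untreated cells, with 1 and 2 higher without replicate 1 of untreated Cfp1-/- and of untreated WT cells and 5 lower without replicate 2 of untreated WT cells. Under doxorubicin it gave 3 to 5 higher and 2 to 5 lower members, with 3 higher and 2 lower without replicate 2 of treated Cfp1-/- cells and 3 lower without replicate 2 of treated WT cells.

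**Figure D5:**
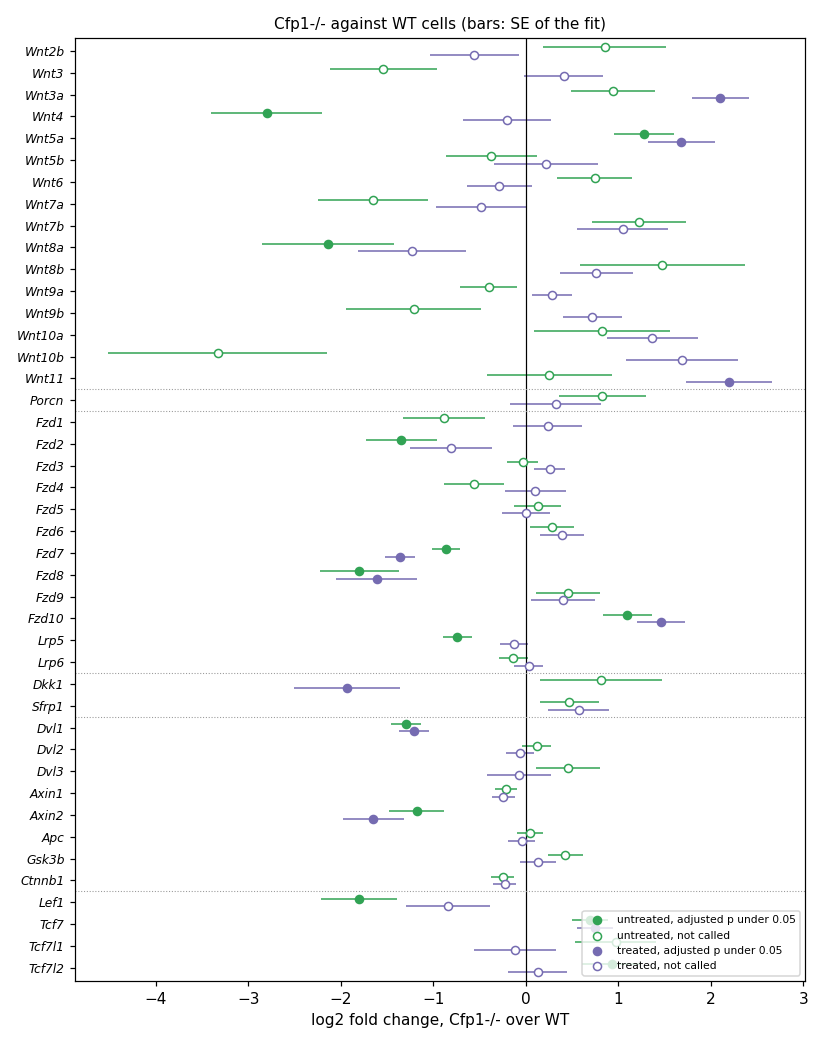
Log2 fold change of Cfp1-/- over WT cells (x axis) for the 43 tested members, untreated in green and treated in purple; bars are standard errors of the fit, filled points have an adjusted p under 0.05, and dotted lines part the roles. Fzd7, Fzd8, Dvl1 and Axin2 lie to the left of 0 in both conditions, and Wnt5a, Fzd10 and Tcf7 to the right; the untreated point of Wnt10b rests on 1 count in Cfp1-/- cells.

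Whether the response to doxorubicin itself differed between the lines was tested with the interaction of genotype and treatment. None of the 43 tested members was called by edgeR, where 0.114% of all genes were called with a larger and 0.121% with a smaller response in Cfp1-/- cells. At an unadjusted p under 0.05 edgeR had 8 of the 43 members, Wnt3, Wnt4, Wnt9b, Wnt10b, Wnt11, Fzd7, Lrp5 and Dkk1, beside 10.6% of all genes. Of the 8, Wnt9b, Wnt10b, Wnt11 and Dkk1 had passed the filter only through treated groups. Wnt10b and Wnt11 passed through treated Cfp1-/- cells alone and Dkk1 through treated WT cells alone. The filter thus favoured a difference in their responses, and these counts are descriptions. Under the replicate block 13 members were at that limit, beside 15.7% of all genes, with 0 calls. DESeq2's Wald test called 1 member, Wnt4, and had 3 at an unadjusted p under 0.05, beside 7.45% of all genes. The 95% intervals of the difference were wide for the sparse ligands, with 0.34 to 3.56 for Wnt3, 0.14 to 3.72 for Wnt9b and 0.04 to 3.84 for Wnt11 on the log2 scale. They were narrower for the abundant members, with -0.37 to 0.42 for Ctnnb1, -0.32 to 0.65 for Lrp6 and -0.99 to -0.02 for Fzd7. The responses of both lines share no libraries, but each was computed against the untreated libraries of its own line, so a low untreated value enters the response and the comparison of untreated lines alike.

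Further genes of the pathway were counted in lists by role, each beside the 26.5% of all genes that rose and 21.8% that fell in WT and the 27.8% and 21% in Cfp1-/- cells. Of 18 other secreted regulators, 8 rose and 2 fell in WT and 7 rose and 3 fell in Cfp1-/- cells, with median log2 fold changes of 1.10 and 0.77 over the 14 tested. These were 57.1% and 14.3% of the tested genes in WT and 50% and 21.4% in Cfp1-/- cells. Dkk4, an antagonist, was listed at 0 in all untreated libraries and had 6.55 and 35.9 normalized counts in treated WT and 5.11 and 9.64 in treated Cfp1-/- cells. Sostdc1, a Wnt and Bmp antagonist, had 0 and 0 in untreated and 5.24 and 12.7 in treated WT cells, and 0.927 and 2.54 and then 20.4 and 30.8 in Cfp1-/- cells. At least Dkk4 and Sostdc1, which were called higher in both lines, could pass the filter on low counts only through treated libraries. They had to differ, so the shares of rises in this list are raised by the filter and are descriptions alone. The antagonist Sfrp4 fell, with a log2 fold change of -0.87 ± 0.24 in WT and -1.68 ± 0.24 in Cfp1-/- cells (edgeR adjusted p = 0.0134 and 0.000394), although without replicate 1 of treated WT cells the WT value was -0.63 and not called. Notum, an enzyme that removes the Wnt lipid, fell, with a log2 fold change of -1.55 ± 0.26 in WT cells (adjusted p = 0.000919) and -1.22 ± 0.26 in Cfp1-/- cells (adjusted p = 0.00349). Sfrp5 was called in opposite directions, 1.57 ± 0.44 in WT and -1.78 ± 0.37 in Cfp1-/- cells (edgeR adjusted p = 0.0153 and 0.00356), the latter -1.43 without the damaged run, and the difference was not called (adjusted p = 0.0674).

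Among 12 other membrane proteins, 5 rose and 3 fell in WT and 6 rose and 3 fell in Cfp1-/- cells, with medians of 0.82 and 0.92. These were 41.7% and 25% in WT and 50% and 25% in Cfp1-/- cells. Lgr6, a receptor of R-spondins, rose, with log2 fold changes of 3.55 ± 0.37 in WT and 3.2 ± 0.36 in Cfp1-/- cells, whereas its relative Lgr4 fell, with log2 fold changes of -1.33 ± 0.14 and -1.15 ± 0.14. The Dkk receptor Kremen1 rose by 1.75 ± 0.14 in WT cells, and in Cfp1-/- cells it went from 631 and 528 to 2173 and 2238 normalized counts. The Wnt5a receptor Ror1 fell, with log2 fold changes of -2.46 ± 0.37 in WT and -1.93 ± 0.40 in Cfp1-/- cells. The related ubiquitin ligases Rnf43 and Znrf3, which remove Frizzled receptors from the cell surface, rose in Cfp1-/- cells. Rnf43 had 12.7 and 33.4 normalized counts in untreated and 44.5 and 51.8 in treated WT cells, and 16.7 and 13.5 and then 135 and 116 in Cfp1-/- cells, a change of 3.09 ± 0.45 on the log2 scale in the latter (edgeR adjusted p = 0.000436) and 1.13 ± 0.44 in WT cells, not called (adjusted p = 0.0577). Znrf3 had 812 and 712 normalized counts in untreated and 782 and 835 in treated WT cells, and 1111 and 996 and then 3245 and 3848 in Cfp1-/- cells. Its WT groups overlapped and both treated Cfp1-/- libraries stood above all others. The response of Znrf3 was larger in Cfp1-/- cells by 1.66 ± 0.21 on the log2 scale (edgeR adjusted p = 0.0317), which made it the only pathway gene outside the 46 called in this test, but the call was lost in 7 of the 8 fits that left out a library (log2 fold changes of 1.51 to 1.76), the exception being the fit without replicate 2 of untreated WT cells.

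Of 21 other intracellular genes, 5 rose and 5 fell in WT and 5 rose and 8 fell in Cfp1-/- cells, with medians of -0.04 and -0.18. The shares, 23.8% in each direction in WT cells and 23.8% and 38.1% in Cfp1-/- cells, were near those of all genes except for the falls in Cfp1-/- cells. Amer2, an Apc-binding membrane protein, rose by 4.38 ± 0.49 in WT and 5.89 ± 0.56 in Cfp1-/- cells, the Apc relative Apc2 by 2.12 ± 0.27 in WT, and the planar polarity cadherin Celsr1 by 2.79 ± 0.27 in Cfp1-/- cells. Untreated normalized counts of Amer2 were 5.10 and 19.8 in WT and 2.78 and 5.92 in Cfp1-/- cells. It could not pass the filter on low counts without treated libraries. The filter thus favoured its rise, which counts among the rises of both lines and is a description. The kinase genes Csnk1a1 and Csnk2a1 fell, with log2 fold changes of -0.76 ± 0.13 and -0.9 ± 0.13 in WT cells, and so did the polarity gene Vangl1 with -1.36 ± 0.19 in Cfp1-/- cells. In Cfp1-/- cells Apc2 went from 65.8 and 86.2 to 214 and 280 normalized counts. There Csnk1a1 went from 11670 and 11691 to 8400 and 6889, and Csnk2a1 from 6022 and 7383 to 4914 and 4487. In WT cells Celsr1 went from 597 and 467 to 2735 and 1672, and Vangl1 from 1139 and 773 to 582 and 530. Amer1 on chromosome X fell, with a log2 change of -0.8 ± 0.22 in Cfp1-/- cells and -0.54 without the damaged run. In WT cells it went from 1164 and 1078 to 899 and 833 normalized counts. The call on Amer1 was lost without replicate 2 of untreated Cfp1-/- cells (-0.79) or replicate 1 of treated Cfp1-/- cells (-0.49), and the value was -1.23 without replicate 2 of treated Cfp1-/- cells.

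Of 15 other nuclear cofactors, 3 rose and 5 fell in WT and 2 rose and 5 fell in Cfp1-/- cells, with medians of -0.20 and -0.22. These were 20% and 33.3% in WT and 13.3% and 33.3% in Cfp1-/- cells. The beta-catenin cofactor Bcl9l rose by 2.39 ± 0.29 in WT and 1.77 ± 0.28 in Cfp1-/- cells, Pygo2 by 0.8 ± 0.17 in WT, and the beta-catenin inhibitor Ctnnbip1 by 0.66 ± 0.16 in Cfp1-/- cells, a call lost without replicate 1 of untreated Cfp1-/- cells (0.59) or replicate 2 of treated Cfp1-/- cells (0.51). In WT cells Ctnnbip1 went from 672 and 709 to 1010 and 966 normalized counts. In Cfp1-/- cells Pygo2 had 534 and 555 untreated and 633 and 528 treated, with overlapping groups. The corepressor Ctbp2 fell, with a log2 fold change of -1.64 ± 0.20 in WT and -1.14 ± 0.20 in Cfp1-/- cells. The Groucho-type corepressor Tle4 on chromosome 19 fell, with log2 fold changes of -1.67 ± 0.15 and -1.39 ± 0.15, the latter -1.08 without the damaged run.

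A list of 16 widely used target genes of beta-catenin, some of which are members as well, gave no common direction in response to doxorubicin. Of the 14 tested, 4 rose and 5 fell in WT cells and 5 rose and 4 fell in Cfp1-/- cells, with medians of -0.30 and 0.56. These were 28.6% and 35.7% in WT and 35.7% and 28.6% in Cfp1-/- cells. The rises in WT cells include Dkk1, which had passed the filter through treated WT cells alone and had to differ. Between the untreated lines more of the 14 were lower in Cfp1-/- cells, with 2 higher and 7 lower and a median of -0.75. These were 14.3% and 50%, beside 17.9% and 16.1% of all genes. Nkd1, a feedback inhibitor, rose by 1.8 ± 0.26 in WT and 2.49 ± 0.27 in Cfp1-/- cells, in the opposite direction to Axin2 and Lef1. T fell in WT cells, with a log2 fold change of -2.89 ± 0.62 (edgeR adjusted p = 0.00383, and -1.62 without replicate 2 of untreated WT cells, still called) and changed by 0.71 ± 0.59 in Cfp1-/- cells, which was not called (adjusted p = 0.344).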

How the data were processed

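RNA was sequenced from 16 samples, 4 groups of 2 biological replicates with 2 technical replicates each. The authors aligned the reads with STAR to the mouse genome (mm9, that is NCBIm37) and counted them per gene with HTSeq, and deposited raw counts per gene and a second table of counts that they normalized with DESeq size factors, whose values are a signal scaled between libraries. Per the labels' processing notes the STAR version was 2.2.1. Printed levels are these deposited normalized counts, in which the authors had summed the technical replicates before scaling. Gene symbols, coordinates and exon lengths came from the NCBIm37 annotation.

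Raw counts were tested with edgeR 4.0.16 (R 4.3.3): a filter that kept 15758 genes, TMM normalization, the quasi-likelihood test with 4 residual degrees of freedom over all 4 groups, and Benjamini-Hochberg adjustment over all genes tested, called at an adjusted p under 0.05. The response difference is the interaction of genotype and treatment. The members and lists were chosen with earlier results of these data known. Full statistics are given for members called with a fold change of at least 2 in any comparison and with at least 20 raw counts in some replicate, and, of the other pathway genes, for the 2 largest called rises and falls per list and response. The statistics of further called members were added after the values were seen. The fit was tested on simulated data. Alternatives were DESeq2 1.42.0 (its size factors or its Wald test), total count scaling, no filter, each group pair alone, the damaged run left out, the second runs of both treated replicates 1 left out, the study's limits, each biological replicate left out and the replicate number as a block. Replicates with the same number deviated together (correlations of deviations from group means of 0.166 to 0.572 in the 6 comparisons of groups). The main fit does not use this pairing, which enters only in the alternative fits with the replicate number as a block. The technical replicates differed by about sampling noise (chi-square per degree of freedom 0.998 to 1.05) except in replicate 1 of treated WT (9.61) and treated Cfp1-/- cells (42.9). Floors and count ratios use 3 counts per library and exact binomial 95% intervals. Per the study's methods HTSeq took strand into account and left out ambiguous reads, so antisense reads and exon stretches shared by genes of the same strand are not in these counts.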

Additional observations from a re-analysis of the deposited data

Results flagged for a closer look

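The response of Znrf3, a ubiquitin ligase for Frizzled receptors, was larger in Cfp1-/- than in WT cells by a log2 difference of 1.66 in the test of the difference itself (edgeR adjusted p = 0.0317). Its normalized counts were 812 and 712 in untreated and 782 and 835 in treated WT cells, and 1111 and 996 and 3245 and 3848 in Cfp1-/- cells. The call was lost in 7 of the 8 fits that left out a library (log2 fold changes of 1.51 to 1.76), and 1.59 was the value without the damaged run.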

How the results depend on the processing

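No called member changed direction under any alternative run. The study's limits cut the members called to 3 higher and 1 lower in WT and 3 higher and 3 lower in Cfp1-/- cells in response to doxorubicin, to 0 higher and 1 lower between untreated lines and to 1 and 1 between treated lines, by their construction. The replicate block gave 11 members lower in the WT response, 7 higher between untreated and 8 higher between treated lines, and together with leaving out the damaged run 11, 9 and 9; no other count of called members moved by over 1.5 times under the block, which added 18 calls on members and removed 0. Members with an unadjusted p under 0.05 in the response difference numbered 13 under the block in place of 8, beside 15.7% in place of 10.6% of all genes. The shares of all genes called under the block at an adjusted p under 0.05 were not computed. Total count scaling left 4 members lower in the Cfp1-/- response, and its calls were lost for Wnt5a, Fzd2, Fzd5, Lrp6, Sfrp1 and Tcf7l1 there; the cause was not tested. In the WT response it moved called values by over 1.5 times for Lrp5 (0.74), Lrp6 (-0.41), Apc (0.72), Csnk1a1 (-0.45) and Csnk2a1 (-0.59). DESeq2's Wald test called 1 member, Wnt4, in the response difference. Among other pathway genes the response difference had 3 calls in place of 1 with DESeq2's Wald test, without the filter and under the block, with or without the damaged run, and treated lines had 25 in place of 15 under the block without the damaged run. Leaving out each library in turn gave 11 to 16 members higher and 6 to 9 lower in the WT response, 13 to 18 and 3 to 11 in the Cfp1-/- response, 0 to 0 in the response difference, 1 to 5 and 5 to 12 between untreated lines and 3 to 5 and 2 to 5 between treated lines. The lowest counts came without replicate 1 of untreated WT cells for the WT response, without replicate 2 of treated Cfp1-/- cells for falls in the Cfp1-/- response and both counts between treated lines, and without replicate 1 of untreated Cfp1-/- and replicate 2 of untreated WT cells between untreated lines. Of 880 single values of named genes refitted without 1 library, 763 kept their call and 117 did not. Leaving out the second runs of both treated replicates 1, of which that of WT cells also differed from its partner by more than sampling noise, ended the calls on Wnt4 in the WT response (1.25), Wnt2b (1.43) and Porcn (-1.14) in the Cfp1-/- response and Dkk1 between the treated lines (-1.55). Across all comparisons DESeq2's Wald test added 6 calls on members and removed 6. Several ligands had under 20 counts in untreated libraries, and the 95% intervals of their response differences were wide.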
